A study of Mus musculus with 16 samples.

Results

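The Bcl2 family decides whether a mitochondrion keeps or opens its outer membrane, and 10 of its genes were followed in the mouse uterus 6 h after estrogen. The genes were Bcl2, Bcl2l1, Mcl1, Bax, Bak1, Bbc3, Pmaip1, Bcl2l11, Bik and Bmf, picked by name among the 25861 genes tested. All 10 were on the array, as 13 probes, and all 13 probes passed the filter on low signal. The mice were ovariectomised at 4 weeks of age, kept 2 weeks without ovarian hormones by the samples' labels, then given castor oil under the skin with 8 µg/kg of 17β-estradiol (E2) or without it (PLB, 0 µg/kg). They were wild type (WT) or carried Arg260, a form of estrogen receptor α named for an arginine. What replaced the arginine, and in which cells, is not told by the labels. Each genotype was sampled with and without E2, which makes 4 groups of 4 one-colour arrays of whole uterus RNA. The labels give each sample its own number but do not say that each came from a separate animal, so p-values measure the spread between these samples.

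Bcl2, Bcl2l1 (which encodes BCL-XL) and Mcl1 encode guardian proteins that hold the membrane shut. Bax and Bak1 encode the effectors, which form pores in it once the guardians are occupied. Bbc3 (PUMA), Pmaip1 (NOXA), Bcl2l11 (BIM), Bik and Bmf encode BH3-only proteins, each of which triggers death by binding the guardians through a short helix. In the uterus, loss of estrogen is known to bring epithelial cells into apoptosis, and estradiol is known to start growth and division.

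In WT uteri, E2 was followed by a 16.3-fold lower Bmf signal and a 2.04-fold lower Bcl2 signal, while Bax was 2.68-fold and Bak1 2.14-fold higher. The same 4 genes moved the same way in Arg260, by 16.8-fold, 2.17-fold, 2.69-fold and 2.11-fold. Of the 10 genes, 8 passed the test in WT, 6 of them higher and 2 lower, in a comparison where 63.5% of all genes tested were called, 31.9% higher and 31.7% lower. In Arg260 the count was again 8, with 6 higher and 2 lower, where 64.3% of all genes were called, 33.6% higher and 30.7% lower. Read against that background, 8 of 10 is no result about the members as a set, and the sizes and directions of single genes carry the account. The median change of the 10 genes was 0.39 log2 units in WT and 0.45 in Arg260, beside -0.02 and 0.02 over all genes tested. These medians were not tested against each other and, like the counts, are no result about the members as a set. A call is an adjusted p under 0.05 from limma's moderated test, adjusted by Benjamini-Hochberg over all genes.

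**Figure D1:**
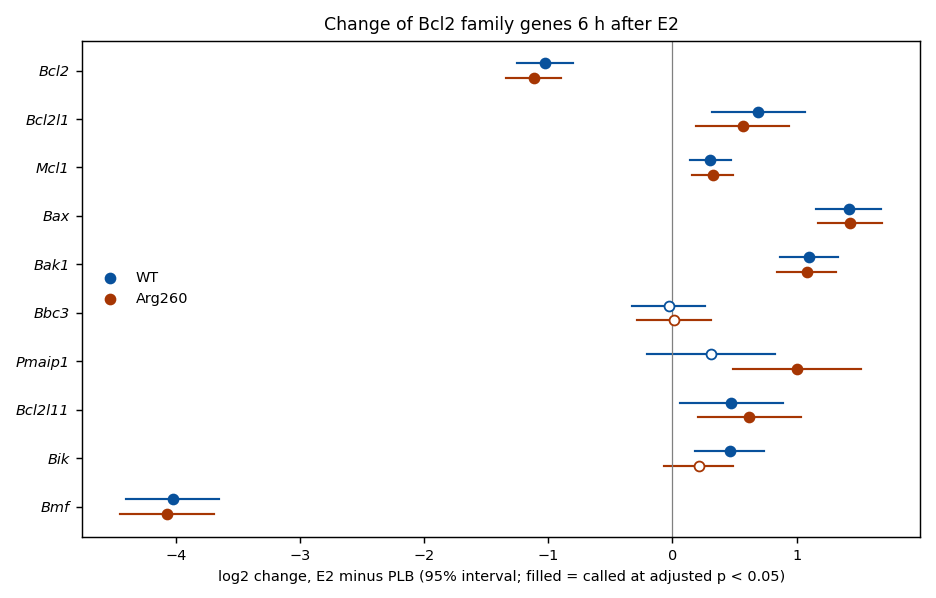
Log2 change from PLB to E2 (x axis) of each gene (y axis) in WT and Arg260, with 95% intervals from limma, n = 4 arrays per group; filled points passed the test. Bmf lies near -4 and Bcl2 near -1 in both genotypes, and Bax and Bak1 lie above 1. Mcl1 and Bcl2l1 are drawn from their brighter probes, whose rises were lost under quantile scaling. There the brighter Mcl1 probe turned to the other side of 0, while the second Bcl2l1 probe kept its call.

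Signals are given on a log2 scale relative to the 75th percentile of their array, so that 0 is that percentile. Levels of different probes cannot be set against each other. The 5 probes below are those of Bcl2, Bcl2l1, Bcl2l11 and Bik with at least 1 forward reading frame free of stop codons. Such a frame over 60 bases does not show that a probe lies in coding sequence. Their positions are those of the array files on mouse build mm9. The Bcl2 probe A_51_P380013 lies at chr1:108608970-108609029, the Bik probe A_51_P117794 at chr15:83374048-83374107, and the Bcl2l1 probe A_52_P510877 at chr2:152655185-152655244. The Bcl2l11 probe A_51_P484880 is 60 bases long but spans 11096 bases of chr2:127972893-127983988, so it joins separate exons. The other Bcl2l11 probe, A_52_P348214, spans 682 bases of chr2:127954736-127955417 and also joins separate blocks.
Bcl2 A_51_P380013: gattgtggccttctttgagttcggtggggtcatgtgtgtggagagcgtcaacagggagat
Bcl2l1 A_52_P510877: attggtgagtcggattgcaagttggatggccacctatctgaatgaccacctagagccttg
Bcl2l11 A_51_P484880: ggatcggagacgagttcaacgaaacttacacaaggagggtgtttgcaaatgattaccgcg
Bcl2l11 A_52_P348214: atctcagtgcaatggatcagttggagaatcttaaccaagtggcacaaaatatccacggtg
Bik A_51_P117794: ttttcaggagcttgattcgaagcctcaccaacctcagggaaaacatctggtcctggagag

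Between 61.6% and 70.6% of non-control spots per array were well above background, and no spot was saturated. Arrays of a group correlated at 0.980 or more. Esr1, which encodes estrogen receptor α, differed by -0.04 after E2 in WT (adjusted p = 0.760, limma) and fell by 0.35 in Arg260 (adjusted p = 0.00475, limma). The difference between those Esr1 responses was -0.31 and was not called after adjustment (unadjusted p = 0.0347, limma). Pgr, the progesterone receptor gene and a known E2 target, rose by 2.12 and 2.37 log2 units. Some lists of cell type markers moved with the treatment and others did not. The summed signal of 7 stroma genes, relative to the 75th percentile, ran from 342 to 458 in WT PLB and from 210 to 312 in WT E2, and from 396 to 498 and 215 to 275 in Arg260. The 8 adipocyte genes summed to 46.6 to 149 in WT PLB, 0.665 to 20.5 in WT E2, 25.9 to 85.1 in Arg260 PLB and 3.99 to 49.2 in Arg260 E2, and 7 of the 8 were well above background on every array of each group. The 7 smooth muscle genes summed to 433 to 580 in WT PLB and 580 to 810 in WT E2, but overlapped in Arg260 (420 to 752 and 630 to 749). The 8 leukocyte genes summed to 21.0 to 24.05 in WT PLB and 16.2 to 20.5 in WT E2, and to 20.5 to 30.7 and 16.1 to 20.02 in Arg260. The 4 striated muscle genes tested summed to 11.6 to 16.5 in WT PLB and 20.2 to 36.2 in WT E2, and overlapped in Arg260 (8.51 to 30.8 and 14.1 to 21.5). The 7 epithelium genes overlapped in WT (117 to 154 and 109 to 150) and in Arg260 (112 to 145 and 114 to 174). Sums of endothelium, neutrophil and mast cell genes also overlapped in both genotypes. Sums of macrophage genes were lower after E2 without overlap in WT only, of eosinophil genes in Arg260 only, and of ovary genes in both. The part of these shifts in the changes below was not tested. In whole tissue, fewer cells of a type and less RNA per cell cannot be told apart. A principal component held 71.8% of the variance and the next 5.12%, in which 2 arrays stood apart (replicate 2 of WT PLB, replicate 3 of Arg260 PLB).

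Among the guardians, Bcl2 was the gene that fell. Its 4 WT PLB arrays read 2.35, 2.36, 2.64 and 2.32, and its 4 WT E2 arrays read 1.31, 1.5, 1.33 and 1.42. Every E2 array lay below every PLB array, with a gap several times the SD within either group (0.148 and 0.0893). The change was -1.03 log2 units (SE 0.104, adjusted p = 6.57e-07, limma). In Arg260, PLB arrays read 2.39, 2.50, 2.39 and 2.12 and E2 arrays 1.2, 1.15, 1.46 and 1.11, again without overlap. That change was -1.12 (adjusted p = 2.58e-07, limma).

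Bcl2l1 encodes the guardian BCL-XL, and its probe with the stronger signal, A_55_P1974877, lies at chr2:152606404-152606463. In WT with PLB the arrays read 4.34, 5.03, 4.10 and 4.53, and WT E2 arrays 5.17, 5.29, 4.88 and 5.42. The WT groups overlapped through PLB replicate 2, which lay above E2 replicate 3. The rise was 0.69 (SE 0.174, adjusted p = 0.00295, limma). With PLB, Arg260 arrays read 4.41, 4.54, 4.11 and 4.51, all below the Arg260 E2 arrays at 4.84, 5.08, 5.07 and 4.85. That rise was 0.57 (adjusted p = 0.0106, limma). The second probe, A_52_P510877, rose by 0.56 in WT (adjusted p = 0.0401, limma) and by 0.54 in Arg260 (adjusted p = 0.0445, limma).

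Scaling decided the call for A_55_P1974877. Under quantile normalization its change was 0.26 in WT (adjusted p = 0.206, limma) and 0.03 in Arg260 (adjusted p = 0.886, limma), while A_52_P510877 rose by 0.66 (adjusted p = 0.0175, limma) and 0.65 (adjusted p = 0.0187, limma). The probe A_55_P1974877 was brighter than 94.4% of genes. Genes between the 90th and the 98th percentile of brightness, 2069 in all, had a median change of 0.36 in WT and 0.44 in Arg260 under the 75th-percentile scaling, and of -0.02 and -0.01 under quantile normalization. This brightness band was chosen after the values were seen.

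Mcl1, the short-lived guardian, was brighter than 95.2% of genes with its probe A_51_P238786 at chr3:95466855-95466914. The WT PLB readings were 5.01, 4.82, 4.71 and 4.89, and WT E2 arrays 5.25, 5.07, 5.17 and 5.17. All E2 arrays were above all PLB arrays in WT, by a narrow margin. The change was 0.31 (SE 0.0766, adjusted p = 0.00278, limma), which is below the median of the bright genes named above. In Arg260 the PLB arrays read 4.91, 4.93, 5.07 and 4.85 and E2 arrays 5.17, 5.26, 5.31 and 5.32, a rise of 0.32 (adjusted p = 0.00183, limma). Under quantile normalization the same probe changed by -0.13 in WT (adjusted p = 0.231, limma) and by -0.17 in Arg260 (adjusted p = 0.121, limma). On the authors' deposited series table, already quantile-normalised, it was lower by 0.18 in both genotypes. With p-values adjusted over genes both were called (adjusted p = 0.0454 and 0.0471, limma), and adjusted over probes only WT was (0.0493 and 0.0515, limma). The direction of this probe therefore turned with the scaling.

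The second Mcl1 probe, A_52_P93933 at chr3:95465543-95465602, gave a larger rise. Without E2, WT arrays read 0.80, -8.33, 0.75 and 0.94, and WT E2 arrays 2.28, 1.95, 2.15 and 1.66. The low reading on WT PLB replicate 2 had a mean signal of 25.9 over a local background of 26.5, beside mean signals of 1772 to 6859 on the other arrays, and the authors' series table lists no value there. With that spot in the fit the WT change was 3.47 (adjusted p = 0.0575, limma). Without it, a choice made after seeing the data, the probe rose by 1.18 in WT (adjusted p = 4.98e-06, limma, with 3 PLB arrays) and by 1.37 in Arg260 (adjusted p = 5.39e-07, limma). The Arg260 PLB readings were 0.77, 0.66, 1.0 and 0.81 and Arg260 E2 arrays 2.27, 2.34, 2.04 and 2.06. Without the low spot, PLB and E2 arrays did not overlap in either genotype.

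The difference between the Mcl1 probes within an array is free of any factor shared by the whole array. A_52_P93933 minus A_51_P238786 was higher after E2 by 0.89 in WT (exact permutation p = 0.0286, adjusted over 10 such tests 0.0408) and by 1.04 in Arg260 (exact permutation p = 0.0286, adjusted 0.0408). A p of 0.0286 is the smallest these designs can give. The 10 tests include Bax minus Bcl2 and Bcl2l1 minus Bcl2 in each genotype, whose exact permutation p was also 0.0286. Their outcome followed from the single genes, and they lower the adjusted values. The adjusted 0.0408 is therefore no result of the probe pairs alone. Under quantile normalization the differences were 1.19 and 1.35, so the 2 probes of Mcl1 changed unequally under either scaling. The Bcl2l1 probes differed by -0.14 in WT (exact permutation p = 0.114) and by -0.02 in Arg260 (exact permutation p = 0.857). That difference turned to 0.40 and 0.62 under quantile normalization, where the exact permutation p was 0.0286 in each genotype.

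**Figure D2:**
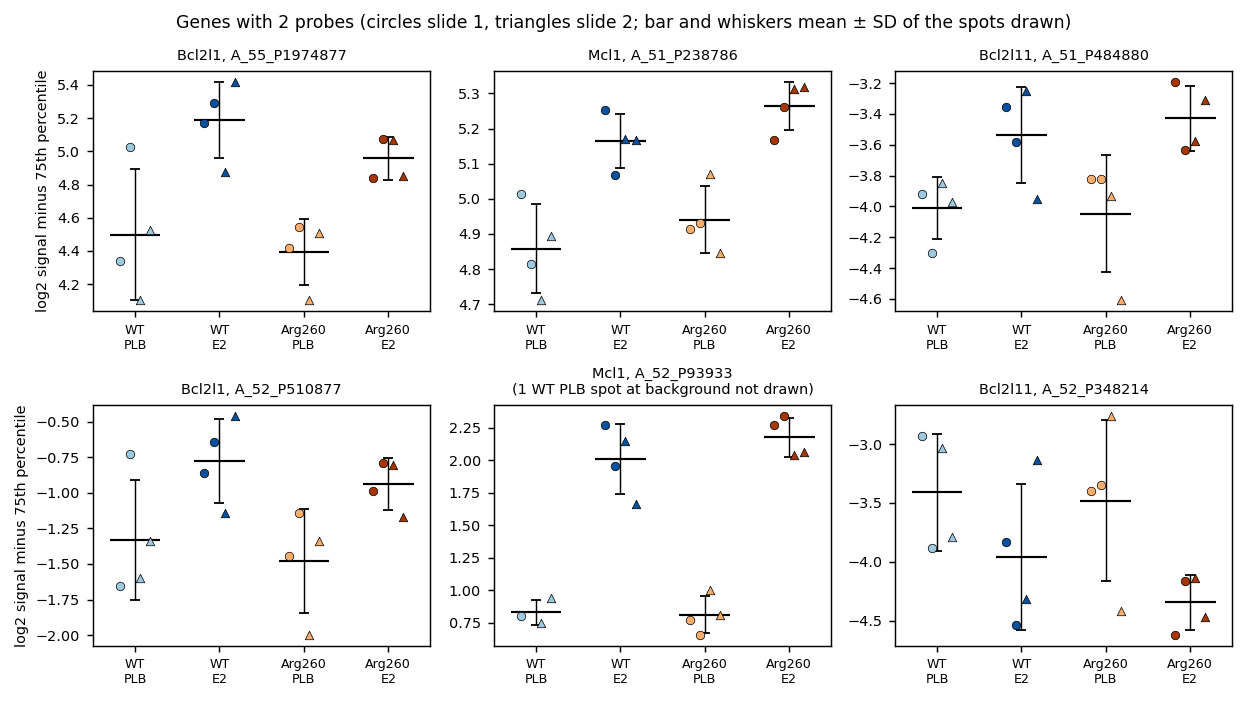
Log2 signal relative to the 75th percentile (y axis) of both probes of Bcl2l1, Mcl1 and Bcl2l11 on each array (points), with group mean and SD. The background-level A_52_P93933 spot of WT PLB replicate 2 is not drawn, and mean and SD there are of 3 arrays. Without it, the mean of Mcl1 probe A_52_P93933 rises by 1.18 in WT and 1.37 in Arg260. The mean of A_51_P238786 shifts by about 0.31, a shift whose sign turned under quantile scaling. The Bcl2l11 probes move in opposite directions.

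The effectors rose together. Bax was measured at chr7:52717122-52717181. On WT PLB arrays it read 1.69, 2.02, 1.96 and 1.94, and WT E2 arrays 3.05, 3.37, 3.58 and 3.28. The lowest E2 array lay about 1 log2 unit above the highest PLB array. The rise was 1.42 (SE 0.121, adjusted p = 1.09e-07, limma). Arg260 values with PLB were 1.83, 2.00, 1.92 and 2.18 and E2 arrays 3.45, 3.47, 3.18 and 3.54, a rise of 1.43 that was likewise free of overlap.

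Bak1, the effector resident in the outer membrane, was measured at chr17:27156807-27156866. WT values with PLB were 1.71, 1.71, 1.75 and 1.92, and WT E2 arrays 2.69, 2.80, 3.20 and 2.79. On Arg260 PLB arrays it read 1.74, 1.73, 1.82 and 1.93, and Arg260 E2 arrays 3.07, 2.73, 2.79 and 2.94. Treatment separated the arrays completely, and within a treatment the genotypes overlapped. The rise was 1.1 in WT and 1.08 in Arg260 (SE 0.109 each).

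Bax and Bcl2 moved apart within each array. Bax minus Bcl2 rose by 2.45 log2 units in WT, 5.45-fold, and by 2.55 in Arg260, 5.85-fold. The corresponding rises were 2.37 and 2.43 under quantile normalization. For Bcl2l1 minus Bcl2 the rises were 1.72 (WT) and 1.69 (Arg260), or 1.49 and 1.37 under quantile normalization. These restate the changes of the single genes above and give no ratio of transcripts or proteins. Their exact permutation p of 0.0286 in each genotype adds nothing to the tests of the single genes. These tests are among the 10 over which the probe differences were adjusted.

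**Figure D3:**
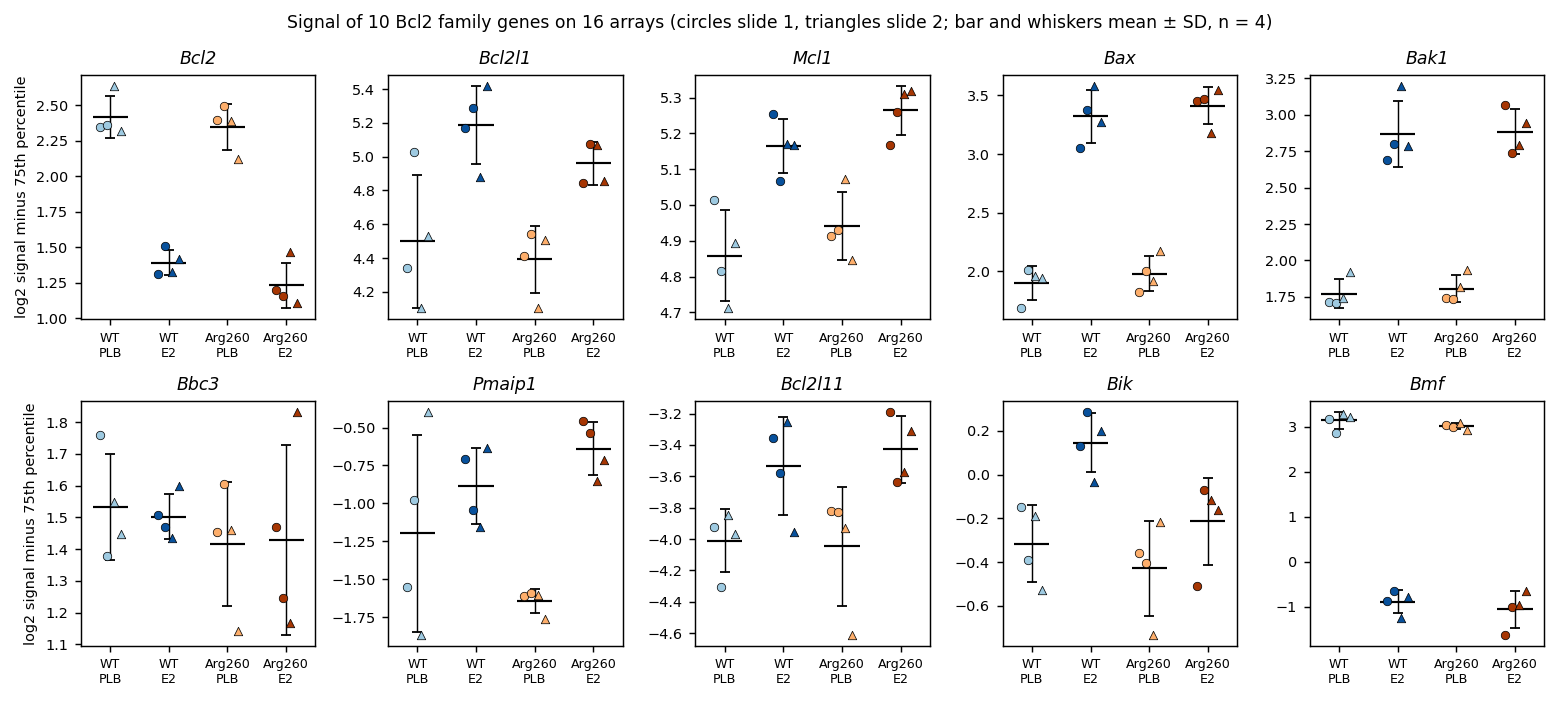
Log2 signal relative to the 75th percentile (y axis, a separate scale per gene) of the 10 genes on all 16 arrays in the 4 groups, with mean and SD, n = 4. PLB and E2 arrays do not overlap for Bcl2, Bax, Bak1, Bmf and the brighter Mcl1 probe in either genotype, while Bbc3 overlaps throughout. How many of all genes separate in this way was not counted, and 63.5% of them were called in WT and 64.3% in Arg260. The small rise of the brighter Mcl1 probe, drawn here, changes sign under quantile scaling.

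Among the BH3-only genes, Bmf changed most, and it did so downwards. Bmf encodes a protein held by the dynein light chain at the actin-myosin cytoskeleton until damage or loss of attachment frees it. The 4 WT PLB values were 3.19, 2.87, 3.29 and 3.22, and WT E2 arrays -0.86, -0.65, -1.24 and -0.78. The 4 Arg260 PLB values were 3.05, 2.99, 3.08 and 2.93, and Arg260 E2 arrays -1.62, -1.01, -0.96 and -0.65. Over 3 log2 units separated the treatments in both genotypes, and all 16 readings were well above background, from 396 to 10900 intensity units. The change was -4.03 in WT (SE 0.175, adjusted p = 1.82e-10, limma) and -4.07 in Arg260 (adjusted p = 1.64e-10, limma). The Bmf probe A_55_P2029106 lies at chr2:118354496-118354555.

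For Bmf, RefSeq annotation of build GRCm38.p6 gives 3 promoter windows, each taken as the 250 bases before a listed start. The estrogen response element searched was GGTCANNNTGACC and its half-site GGTCA, on both strands, every full element holding half-sites too. No window of any member held the full element, which 0.0639% of 32851 windows hold, and half-sites stand in 35.2% of windows. The Bmf window at chr2:118549687-118549936, minus strand, holds 2 half-sites, 139 and 31 bases before the start, shown in capitals because this gene carries the largest change.
Bmf promoter: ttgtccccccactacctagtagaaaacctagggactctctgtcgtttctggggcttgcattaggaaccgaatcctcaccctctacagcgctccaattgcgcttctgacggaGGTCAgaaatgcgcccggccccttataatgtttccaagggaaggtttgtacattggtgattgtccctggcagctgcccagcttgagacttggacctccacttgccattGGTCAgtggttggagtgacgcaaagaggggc

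Bax has 1 window, chr7:45466899-45467148 on the minus strand, and is shown because it is the effector with the larger change. Capitals mark a p53 half-site 201 bases before the start, of a motif found in 7.13% of windows, and an E-box, CACGTG, 9 bases before it, found in 6.02%. Neither motif is particular to Bax: another Bmf window holds a p53 half-site 213 bases before its start, and a Bbc3 window holds an E-box.
Bax promoter: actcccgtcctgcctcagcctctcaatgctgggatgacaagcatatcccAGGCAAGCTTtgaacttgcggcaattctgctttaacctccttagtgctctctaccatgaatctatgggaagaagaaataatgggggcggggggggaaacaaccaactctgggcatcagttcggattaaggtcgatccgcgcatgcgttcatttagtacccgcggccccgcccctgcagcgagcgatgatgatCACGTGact

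Windows were listed for 8 of the 10 genes. Bcl2l1 held 3 half-sites in 1 of its 3 windows, and Bcl2l11 held 1. The Sp1 motif GGGCGG, present in 32.7% of windows, occurred 7 times in the Bcl2 window and 7 times in 1 of the 3 Bbc3 windows, with 5 and 1 in the others. It also stood in windows of Bcl2l11 (3 and 2), Bax (2) and Mcl1 (1). The FoxO motif GTAAACA, present in 3.17% of windows, occurred once each in windows of Bcl2l11 and Bbc3, 227 and 167 bases before a start. The AP-1 motif TGANTCA, present in 6.75%, occurred in no member's window. A match is a description of these letters and not a bound site.

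Bik, whose protein acts at the endoplasmic reticulum as well as at mitochondria, read -0.15, -0.39, -0.19 and -0.53 on the WT PLB arrays and 0.13, 0.29, -0.03 and 0.20 on the WT E2 arrays. The WT groups did not overlap. It rose by 0.46 in WT (SE 0.129, adjusted p = 0.00604, limma). Within slide 1 the WT change was 0.48 (adjusted p = 0.0618, limma) and within slide 2 it was 0.44 (adjusted p = 0.153, limma), so the size held and the call did not. PLB arrays of Arg260 read -0.36, -0.40, -0.73 and -0.22 and Arg260 E2 arrays -0.51, -0.07, -0.12 and -0.16, which overlapped. The Arg260 difference was 0.21 (adjusted p = 0.165, limma), with a 95% interval from -0.06 to 0.49. Without Arg260 E2 replicate 1 it was 0.31 (adjusted p = 0.0450, limma).

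Pmaip1 encodes NOXA, the partner that marks MCL1 for destruction. Its WT PLB arrays were the most scattered of its 4 groups, at -1.55, -0.97, -1.86 and -0.40, and its WT E2 arrays read -0.71, -1.05, -1.15 and -0.64. The WT difference was 0.31 (adjusted p = 0.278, limma), and 0.58 without WT PLB replicate 4 (adjusted p = 0.0153, limma). Arg260 PLB arrays were close together at -1.61, -1.59, -1.60 and -1.76, and Arg260 E2 arrays read -0.45, -0.54, -0.85 and -0.71. Those groups did not overlap, and Pmaip1 rose by 1.0 in Arg260 (SE 0.240, adjusted p = 0.00202, limma). The difference between the genotypes' responses was 0.69, with a 95% interval from -0.04 to 1.42, and was not called (unadjusted p = 0.0613, adjusted 1.0, limma).

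Bcl2l11 encodes BIM and lay at the dim end of the array, brighter than 25.4% of genes. Probe A_51_P484880 read -3.92, -4.30, -3.85 and -3.97 in WT PLB and -3.35, -3.58, -3.25 and -3.95 in WT E2. Without E2, Arg260 arrays read -3.82, -3.82, -3.93 and -4.61, and Arg260 E2 arrays -3.19, -3.64, -3.58 and -3.31. The WT groups overlapped through WT E2 replicate 4, and the Arg260 groups did not overlap. The rise was 0.48 in WT (SE 0.192, adjusted p = 0.0431, limma) and 0.62 in Arg260 (adjusted p = 0.0112, limma). The WT call was lost on leaving out any of WT PLB replicates 1, 2 and 4, WT E2 replicates 1, 2 and 3, or Arg260 E2 replicate 4, with values from 0.38 to 0.50.

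Probe A_52_P348214 went the other way. The array annotation names it Bcl2l11, but it matched no RefSeq transcript in the annotation used here. It read -2.93, -3.88, -3.03 and -3.79 in WT PLB and -3.84, -4.54, -4.32 and -3.14 in WT E2, a difference of -0.55 (adjusted p = 0.197, limma). In Arg260 it read -3.40, -3.35, -2.76 and -4.41 with PLB and -4.62, -4.16, -4.13 and -4.47 with E2, a fall of 0.86 (adjusted p = 0.0463, limma). That call was lost under median scaling (-0.73), under quantile normalization (-0.73), with normexp added to it (-0.40) and on the authors' series table (-0.47). The first probe minus the second was higher after E2 by 1.48 in Arg260 (exact permutation p = 0.0286, adjusted 0.0408) and by 1.02 in WT (exact permutation p = 0.114). That adjustment used the same 10 tests as for Mcl1 and has the same limit. Averaged over both probes, Bcl2l11 differed by -0.036 in WT and -0.12 in Arg260, neither called. The direction therefore rests on which probe is read, and whether A_52_P348214 reads a Bcl2l11 transcript was not tested.

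Bbc3, the p53 target that encodes PUMA, was the member not called in either genotype. PLB arrays of WT read 1.76, 1.38, 1.55 and 1.45 and WT E2 arrays 1.51, 1.47, 1.43 and 1.60, with the E2 values inside the PLB range. In Arg260, PLB values were 1.45, 1.61, 1.46 and 1.14 and E2 arrays 1.47, 1.24, 1.17 and 1.83. The difference was -0.03 in WT (95% interval -0.33 to 0.26) and 0.01 in Arg260 (-0.28 to 0.31).

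Arrays can be scaled in ways that assume different things of the bright genes, and the members were followed under each. Bmf, Bcl2, Bax and Bak1 kept direction and call under all 31 alternatives in both genotypes, with Bmf between -4.27 and -3.78 and Bcl2 between -1.26 and -0.88 in WT. Under quantile normalization 4 members instead of 6 were called higher in each genotype. With the authors' series table as input, 4 members were called higher and 3 lower.

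**Figure D4:**
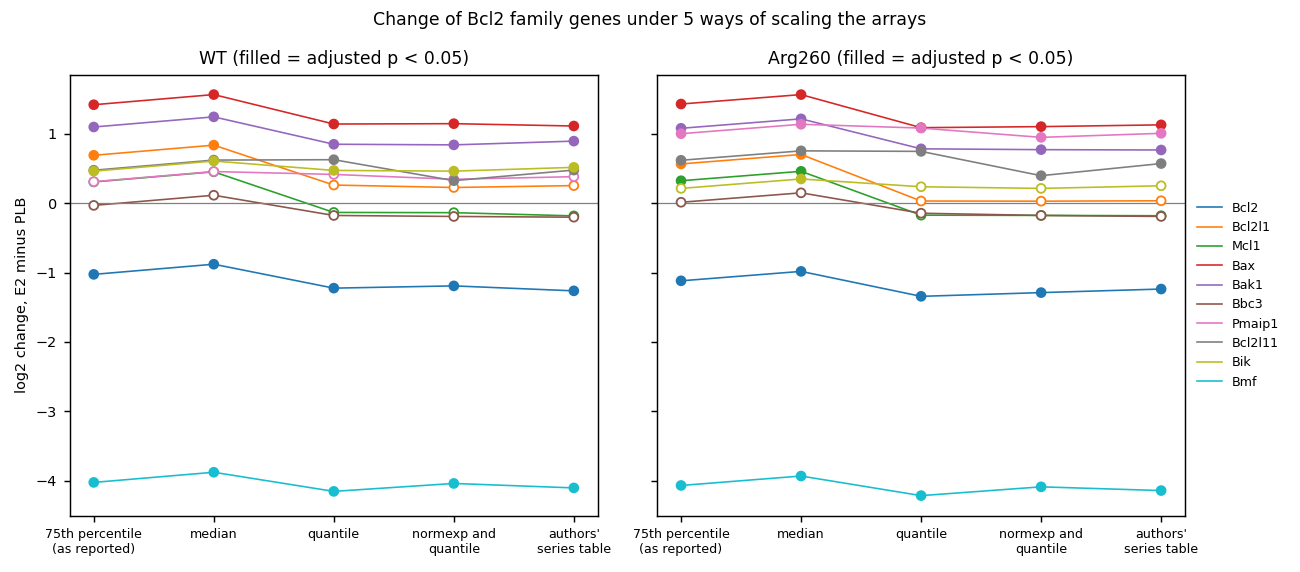
Log2 change from PLB to E2 (y axis) of each gene in WT and Arg260 under 5 scalings (x axis); filled points passed the test. Bmf, Bcl2, Bax and Bak1 hold their places. Under quantile normalization the brighter Mcl1 probe moves from 0.31 to -0.13 in WT, and the brighter Bcl2l1 probe from 0.69 to 0.26.

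The comparison of the genotypes asks whether Arg260 alters the response of these genes to E2. None of the 10 members and 0% of the 25861 genes tested were called for a genotype difference of the response by limma, where 962 genes and no member had an unadjusted p under 0.05. The members' differences between responses ran up to 0.69 in size, with intervals reaching 0.23 to 0.73 log2 units to either side. In PLB alone, 0% of genes were called between Arg260 and WT by limma, with 638 genes and no member at an unadjusted p under 0.05. In E2 alone, 0% were called by limma, with 1901 genes and 1 member at an unadjusted p under 0.05. That member was Bik, lower in Arg260 E2 by 0.36 (unadjusted p = 0.0147, adjusted 0.609, limma), and its 4 Arg260 E2 arrays all lay below its 4 WT E2 arrays. By other settings 1 to 3 genes of the whole table were called in E2, none of them a member.

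Other genes of the death pathway were read from lists of related genes. Their counts stand beside 31.9% of all genes called higher and 31.7% lower in WT, and 33.6% and 30.7% in Arg260. Several lists lie near those shares, and nothing is read from a list's count as such. Of 12 further BCL2 family genes tested of 15 listed, WT had 3 called higher and 5 lower, Arg260 4 and 5. Bnip3l and Bnip3, whose proteins direct mitochondria to autophagy, fell by 1.85 and 1.67 in WT, and Bcl2l14 fell by 1.75. Their changes in Arg260 were -1.74, -1.68 and -1.63. The list's median change was -0.16 in WT and -0.35 in Arg260.

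Downstream of the pore, 13 genes of the apoptosome, the caspases and released mitochondrial proteins split by role. After E2, 4 were called higher and 6 lower in WT uteri, against 5 and 6 in Arg260. Cycs, which encodes cytochrome c, rose by 2.78 in WT and 2.68 in Arg260. Casp2, a caspase gene, fell by 1.85 and 1.72. The list's median change was 0.06 in WT and 0.14 in Arg260. Htra2, called higher in Arg260 by 0.22, turned to -0.18 there under quantile normalization, without a call. With normexp added to it (-0.21) and on the authors' series table (-0.20), Htra2 was called lower in Arg260.

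Of 5 inhibitor of apoptosis genes, 2 rose and 1 fell in each genotype, with medians of -0.17 and -0.08. Under quantile normalization, with or without normexp, and on the authors' series table, the number called lower was 2 in each genotype, and with the slide or the replicate as a block 2 in WT. Birc5 (survivin, also a mitotic protein) rose by 2.33 in WT and 1.85 in Arg260, Birc6 rose by 0.57 and 0.53, and Birc2 fell by 0.76 and 0.70. Of 7 outer membrane partners 5 rose in WT and 6 in Arg260, none fell, and the medians were 0.58 and 0.56. Vdac2, the channel that retains BAK, rose by 1.0 and 1.12, Mtch2, a receptor for BID, by 0.75 and 0.85, and Vdac3 by 0.68 and 0.72. Under quantile normalization 3 of the 7 were called higher and 1 lower in each genotype.

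In the death receptor pathway 6 of 11 genes were called higher and 4 lower in WT, 5 and 3 in Arg260, with medians of 0.32 and 0.31. Tnfrsf1a, the main TNF receptor gene, rose by 1.39 and 1.57, and Ripk1, the kinase it recruits, by 1.27 and 1.38. Tnf rose by 1.65 in WT and differed by 0.92 in Arg260 (adjusted p = 0.0949, limma). Its signal was dim, with a mean of -5.78 in WT PLB and -4.14 in WT E2, and it scattered in Arg260 PLB (SD 1.23). A list of 13 genes held 12 transcription factors known to act on BCL2 family genes and Mdm2, which encodes the ubiquitin ligase of p53. Of the 13, 10 were called higher in each genotype, Mdm2 among them (0.67 and 0.93), with medians of 1.12 and 0.96. On the authors' series table Mdm2 was not called in WT (0.19). Foxo3, named after its value was seen, was the 1 called lower in WT (-0.64) and was not called in Arg260 (-0.14). The difference between those responses was not called (adjusted p = 1.0, limma), and on the authors' series table the WT call was lost (-0.36). Atf3 and Atf4, factors of the stress response, rose by 2.93 and 2.66 in WT. Their rises in Arg260 were 2.81 and 2.54, and Stat5a rose by 2.70 in each genotype. Foxo1, called higher by 0.19 and 0.25, turned to -0.17 and -0.18 under quantile normalization.

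Of 11 genes listed for binding and turnover of these proteins 10 were tested, and 7 rose in each genotype, with medians of 0.33 and 0.41. Btrc and Mapk8, named after their values were seen, were the 2 called lower in Arg260 (-0.52 and -0.50), and in WT they differed by -0.35 and -0.40 without a call. The Mapk8 call was lost under median scaling (-0.36), under quantile normalization (-0.35), with normexp added to it (-0.26) and on the authors' series table (-0.27). Dynll1, a dynein light chain, rose by 1.04 and 0.65, Ywhaz, a 14-3-3 protein gene, by 0.85 and 0.90, and Bag1 by 0.47 and 0.56. Under quantile normalization Bag1 changed by 0.11 in WT and was not called, and 4 of the 10 were called higher and 1 lower in each genotype.

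**Figure D5:**
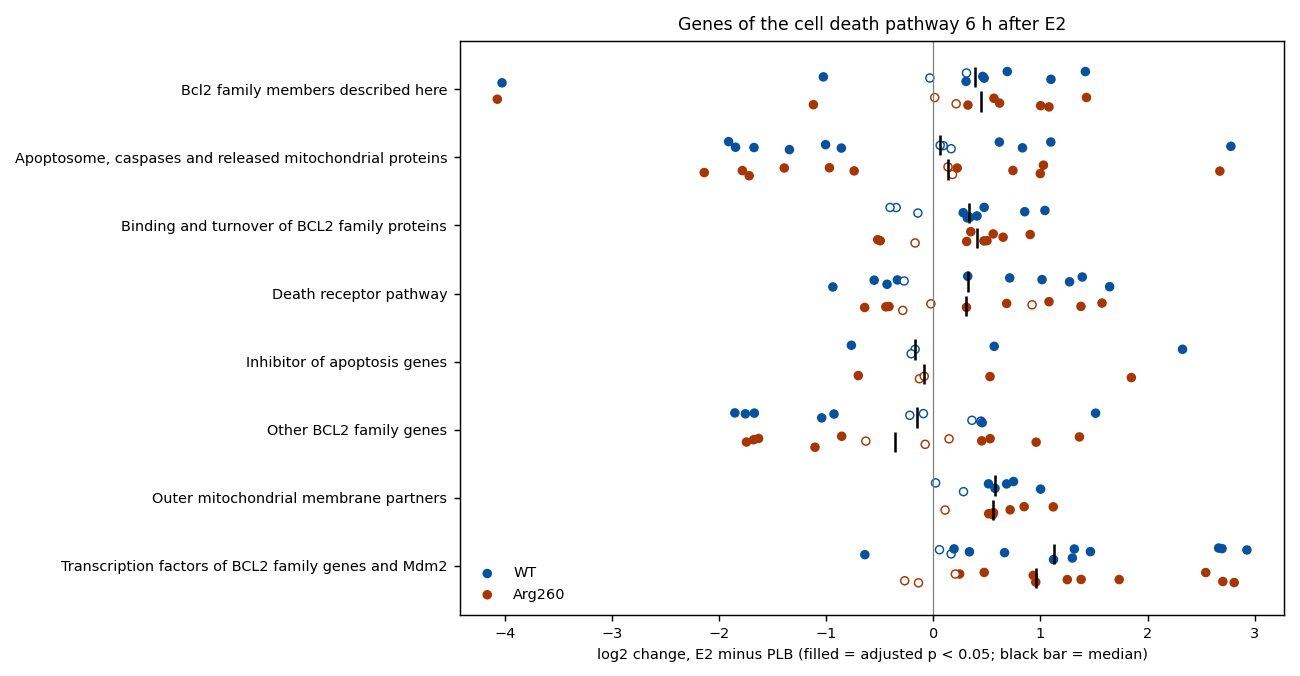
Log2 change from PLB to E2 (x axis) of each gene of the members and of 7 related lists (y axis) in WT and Arg260; filled points passed the test and black bars are medians. The list of transcription factors and Mdm2 lies mostly to the right, with medians of 1.12 and 0.96, and Casp2, Casp6 and Casp9 lie left of -1, while Casp8 lies right of 0; small changes such as those of Foxo1, Huwe1 and Dynll2 turn sign under quantile scaling.

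The genes whose pattern over the 16 arrays was nearest to each member were found by the root mean square difference after centring. Nearest to Bmf were Cngb1 at 0.218 and Olfml1 at 0.226 log2 units, where Bmf itself varied by 2.04. Nearest to Bcl2 were Evc at 0.115 and Mtarc2 at 0.117, nearest to Bax were Mrpl17 at 0.0919 and Tbcb, and nearest to Bak1 were Tmem167 at 0.0777 and Cdk4 at 0.0863. For Mcl1 they were Dpf2 at 0.0697 and Akirin2, and for Bcl2l1 Chdh at 0.0995 and Igf2bp2 at 0.123. Bik was nearest to Ssbp3 at 0.122 and Rpa1, and Pmaip1 to Stx18 at 0.241 and Spint1 at 0.278. Bcl2l11 was nearest to Osbpl3 at 0.178 and Ptbp3. For Bbc3, Zfp58 at 0.133 and Trmu at 0.137 came nearest, against its own spread of 0.180.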

How the data were processed

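Total RNA from whole uterus was hybridised to one-colour Agilent mouse arrays, 1 per sample, on 2 slides of 8, each slide holding 2 arrays of every group. The deposited intensity values were extracted with Agilent Feature Extraction 10.10.1.1 and, per the file headers, subtracted for background and spatial trend within an array but not normalised between arrays. The deposited 0/1 flags mark spots well above background, saturated or outlying. The deposited series table holds log2 values; limma is named in the submitters' processing notes, but how the background was corrected or probes filtered is not given in the sources used here. All 16 columns have a common distribution.

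Here processed signals were put on a log2 scale and centred on the 75th percentile of the array's non-control spots, flagged outlier spots were left out, and probes well above background on at least 4 of 16 arrays were kept. The probe with the highest mean stood for a gene, and all probes of a member are shown. Names were updated through a GRCm38.p6 table (27325 probes by accession, 3523 by symbol, 551 by synonym), and 24282 kept the file's name. A model of 4 group means over all arrays (limma 3.58.1, R 4.3.3, lmFit and eBayes) gave two-sided tests, adjusted over 25861 genes, and the code was tested on simulated data. Probe-level p-values were adjusted over 38683 probes. Differences within an array were tested by two-sided exact permutation of treatment within a genotype.

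The members, lists and alternatives were chosen with earlier results of these data known. Named genes are all members, Esr1 and Pgr, the 3 called genes of each list with the largest change in WT, and the 2 genes nearest each member in pattern; Htra2, Mdm2, Foxo1, Foxo3, Btrc, Mapk8, Casp6, Casp8, Casp9, Huwe1 and Dynll2 were named after their values were seen. Depth has no count on arrays: the number of arrays limits the precision. Tctp, listed beside Tpt1, is an older name of that gene, which was tested and counted once. Trim17, Bcl2a1a, Bcl2a1b and Bcl2l10 of the lists were not tested. A gene that the naming rule selects is not reported here by name.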

Additional observations from a re-analysis of the deposited data

Results flagged for a closer look

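In 52 groups of 4 readings of the members' probes, 4 held a reading far from the other three by Dixon's ratio, at a limit that chance passes in about 1 group in 20. The Mcl1 probe A_52_P93933 read -8.33 on WT PLB replicate 2, where the other WT PLB arrays read 0.75 to 0.94. Bcl2 read 2.64 on WT PLB replicate 3, above 2.32 to 2.36 on the others. Pmaip1 read -1.76 on Arg260 PLB replicate 4, just below -1.61 to -1.59. The Bcl2l11 probe A_51_P484880 read -4.61 on Arg260 PLB replicate 4, below -3.93 to -3.82, and without that array the gene's rise in Arg260 was still called.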

How the results depend on the processing

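Bmf, Bcl2, Bax and Bak1 kept direction and call in both genotypes under all 31 alternative settings. The brighter Mcl1 probe was reversed under quantile normalization (-0.13 in WT, -0.17 in Arg260) and under normexp with quantile normalization (-0.14 and -0.18). On the series table it was also reversed (-0.18 in both, called lower over genes, but in Arg260 not over probes). Bcl2l11 was reversed when averaged over its probes (-0.036 and -0.12). The difference between the Bcl2l1 probes turned to 0.40 and 0.62 under quantile normalization and to 0.41 and 0.52 on the series table, alternatives added after seeing the data. Within slide 1 alone 3 members were called higher in each genotype, and within slide 2 alone 3 in WT and 2 in Arg260, with 2 arrays per group. Leaving out single arrays changed the calls of Bcl2l11 and Pmaip1 in WT and of Bik in Arg260. Median scaling put the median change of all genes at 0.12 (WT) and 0.15 (Arg260) instead of -0.02 and 0.02, and Bik was then called in Arg260 (0.35). A further 80 values that were not called in either setting changed sign. Same-numbered arrays deviated together with correlations of -0.11 to 0.26. These were not compared with arrays of different numbers, so they cannot settle whether the numbers pair the samples. Replicates 1 and 2 lay on slide 1, and replicates 3 and 4 on slide 2. With the replicate block 6 members were called higher and 2 lower in each genotype, as without it. The causes were not tested. Dim signal limits Bcl2l11, whose probe A_51_P484880 read 40.8 to 133 intensity units and whose probe A_52_P348214 read 44 to 175.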
